A study of Mus musculus with 8 samples.

Results

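Of the 27179 Entrez Gene identifiers counted, 70 had a peak at the proB stage of control mice, the stage pattern of Erg itself. A gene was included when its mean level in Erg fl/fl proB cells was at least 10 CPM (counts scaled to a common library total) and at least 3 times its mean in both Erg fl/fl pre-proB and Erg fl/fl preB cells. In all, 73 genes met these conditions, and Erg, Igll1 and Vpreb1 were then left out together with any heavy or kappa chain variable gene, of which 0 had met them. The stage levels of the remaining 70 genes chose them, so these levels are given as a description without a test. Levels in Erg-deficient pre-proB cells were not used in the choice and were compared here with those of control pre-proB cells. The latter libraries had a part in choosing the genes.

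RNA had been sequenced from B-cell progenitors sorted from the bone marrow of mice aged 7 to 10 weeks, in 4 groups with 2 biological replicates each. The 3 control groups, pre-proB, proB and preB cells, came from Erg fl/fl mice, which have floxed Erg alleles and lack Rag1Cre. The 4th group was pre-proB cells of Rag1CreT/+;ErgΔ/Δ mice, in which Cre expressed from Rag1 deletes Erg in lymphoid progenitors, and only the pre-proB stage of this genotype was analysed here. The genotypes therefore differed in Cre as well as in Erg, and effects of the 2 alleles cannot be told apart.

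Pre-proB, proB and preB cells are successive stages of B-cell formation. In proB cells the immunoglobulin heavy chain gene is assembled, and cells that make a working heavy chain expand under the pre-B-cell receptor before light chain assembly begins at the preB stage. Erg is a transcription factor of the ETS family, whose members bind DNA at a GGAA core. Growth of early B-cell progenitors is known to draw on Myc, on D-type cyclins and on purine and folate metabolism.

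Library totals ranged from 15565381 to 18457632 counts, and 3 counts, taken as the limit for a gene without a count, correspond to 0.193 CPM in the shallowest library. Flt3, a receptor of early lymphoid progenitors, was at 507 and 575 CPM in the control pre-proB libraries, at 20.9 and 28.1 CPM in proB, at 2.47 and 4.03 CPM in preB and at 562 and 601 CPM in Erg-deficient pre-proB. Il2ra, a surface receptor of preB cells, was at 6.54 and 5.31 CPM in control pre-proB, 67.6 and 66.7 CPM in proB, 290 and 303 CPM in preB and 6.83 and 6.44 CPM in Erg-deficient pre-proB. The summed level of 7 plasmacytoid dendritic cell markers was 10600 to 12300 CPM in the 4 pre-proB libraries and 211 to 369 CPM in the proB and preB libraries, so the pre-proB libraries held RNA of that kind in both genotypes. In RNA from sorted populations, fewer cells of a type and less RNA per cell cannot be told apart.

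Levels of the 70 genes at the proB stage differed widely among themselves. Per length, Mif, a cytokine, had the highest mean in proB cells at 246 FPKM (CPM divided by the exon length in kilobases), and D630045J12Rik the lowest at 1.01 FPKM. The proB mean was a median of 4.01 times the pre-proB mean and 4.44 times the preB mean. The farthest from pre-proB was Il33, at 31.9 times, and the farthest from preB was Bok, at 11.3 times. Of the 70 genes, 41 had a higher mean in pre-proB than in preB cells. Srm (3.06 times pre-proB), Smtn (3.04 times pre-proB), Ctnnd1 (3.04 times preB), Mthfd1 (3.05 times preB), Klhl23 (10.8 CPM in proB) and Wdr60 (11.2 CPM) lay just inside the limits. Just outside them lay Slc17a9 (2.99 times pre-proB), Myl10 (under the limit, 3.0 times after rounding), Sash1 and Hspd1 (both 2.98 times preB), Dnajc6 (9.92 CPM in proB) and Nefh (9.86 CPM). Erg itself met the limits narrowly, at 3.03 times pre-proB and 5.81 times preB. With library sizes scaled by TMM, 6 of the 70 no longer met them: Adgrg1, Ctnnd1, Maoa, Smtn, Srm and Zap70. With limits of 2 or 4 times, 272 or 24 genes would have been chosen.

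**Figure D1:**
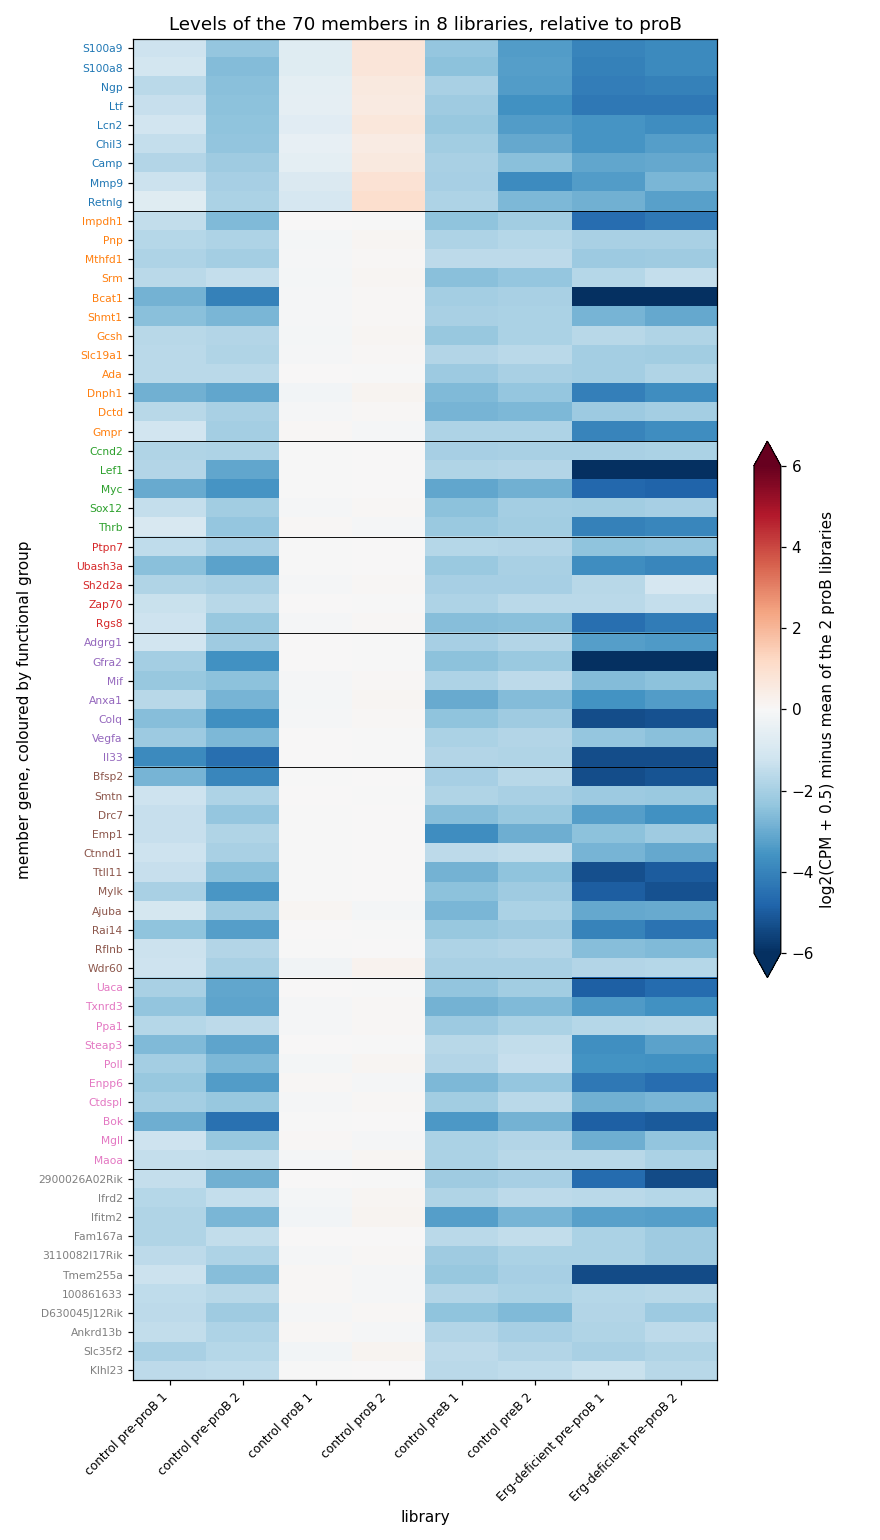
Level of each of the 70 genes (rows, grouped and coloured by function) in each of the 8 libraries (columns), as log2(CPM + 0.5) minus the mean of the 2 proB libraries, with blue for lower and red for higher. The Erg-deficient columns are darker than the control pre-proB columns for part of the genes only, and the neutrophil granule genes at the top differ between the 2 proB libraries.

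To see how these genes stood without Erg, pre-proB cells of the genotypes were compared with the quasi-likelihood test of edgeR, and Benjamini-Hochberg adjustment covered all 13005 genes tested. At an adjusted p below 0.05, 13 of the 68 tested members (19.1%) fell in Erg-deficient cells, whereas 0.946% of all genes tested were called lower. Of the members, 0 were called higher by edgeR, DESeq2 or limma-voom, against 0.215% of all genes, and at an unadjusted p below 0.05 edgeR gave 45 lower and 1 higher (7.6% and 4.88% of all genes). DESeq2 called 30 of the 68 lower and limma-voom 0, and over all 13005 genes they called 400 and 41 in either direction. The median log2 fold change was -1.24 over the tested members and 0.01 over all genes tested, and it was -1.30 over all 70 with the genes of fewest counts at their counting limits. In 54 of the 68 both Erg-deficient libraries lay below both control libraries, where 21.9% of all genes tested had this order, in 1 both lay above (23.3% of all genes) and in 13 the genotypes overlapped. The 2 members under the filter on low values, Bok and Il33, also had both Erg-deficient libraries below both controls.

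These counts carry 2 limits of construction. Of the 68 genes, 9 passed the filter of 0.5 CPM in 2 libraries through the control libraries alone, 5 of them called lower. Of the other 59, 8 were called lower. For the 9 the filter itself had set both Erg-deficient libraries below both controls. They are nevertheless included in the count of tested genes with that order given above, and their order is no sign of a fall. The number of calls also turned on single libraries. Without Erg-deficient replicate 1 or replicate 2 it was 0, with 39 and 40 members lower at an unadjusted p below 0.05, both over the same 68 genes. Leaving out a control library also removed the 9 genes that had passed through the controls alone, and over the 59 still tested the fit of all 4 libraries called 8 lower with a median log2 fold change of -0.81. Over these 59 the number was 30 and the median -0.97 without control pre-proB replicate 2, and 14 and -0.49 without control pre-proB replicate 1.

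**Figure D2:**
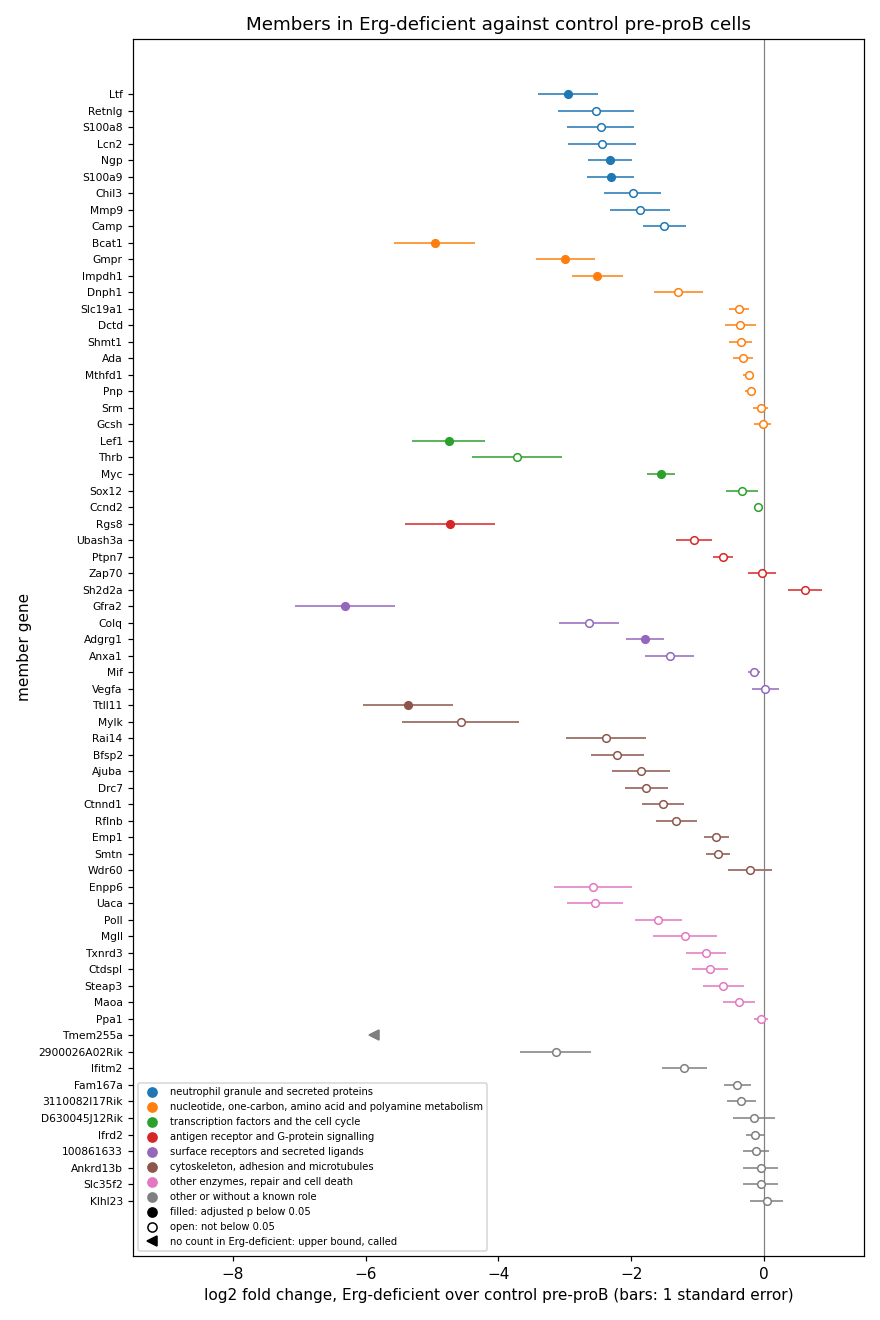
Log2 fold change of each tested gene in Erg-deficient over control pre-proB cells (points, with bars of 1 standard error, 2 libraries per genotype), filled where the adjusted p was below 0.05. Tmem255a, which had no count in the Erg-deficient libraries, is drawn as a triangle at its counting limit. Values reach from -6.31 for Gfra2 to 0.62 for Sh2d2a, and within most functional groups genes near 0 stand beside genes far below it.

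Transcription factors and a cell cycle regulator make up 5 of the genes. Lef1, an HMG-box factor that acts with β-catenin in Wnt signalling, was at 182 and 190 CPM in the proB libraries, 54.6 and 20.7 CPM in control pre-proB, 52.1 and 55.4 CPM in preB and 1.49 and 1.29 CPM in Erg-deficient pre-proB. It fell by 4.75 ± 0.552 (SE) on the log2 scale with an adjusted p of 0.0203 in edgeR, the lowest adjusted p of the 70 genes. Myc, a factor that drives growth and biosynthesis, was at 170 and 178 CPM in proB, 20.7 and 14.3 CPM in control pre-proB, 19.9 and 23.5 CPM in preB and 6.21 and 5.80 CPM in Erg-deficient pre-proB. It fell by 1.55 ± 0.208 on the log2 scale (edgeR adjusted p = 0.0293). For both genes the Erg-deficient libraries lay close together and below both controls.

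Thrb, a thyroid hormone receptor, was at 5.76 and 1.93 CPM in control and 0.249 and 0.322 CPM in Erg-deficient pre-proB cells, a log2 fold change of -3.72 ± 0.674 with an edgeR adjusted p of 0.0645. Sox12, another HMG-box factor, overlapped between the genotypes, at 10.2 and 6.39 CPM against 6.28 and 6.89 CPM (log2 fold change -0.33, adjusted p = 0.635). Ccnd2, cyclin D2, which activates the G1 kinases, had 263 and 268 CPM in proB and almost the same level in all other groups, with 75.4 and 72.3 CPM in control pre-proB, 66.1 and 69.5 CPM in preB and 68.6 and 70.8 CPM in Erg-deficient pre-proB (log2 fold change -0.09 ± 0.0645, adjusted p = 0.631). Erg itself was at 69.8 and 25.1 CPM in control pre-proB, 145 and 129 CPM in proB, 19.4 and 28.5 CPM in preB and 2.49 and 2.58 CPM in Erg-deficient pre-proB cells (log2 fold change -4.23, adjusted p = 0.0250).

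**Figure D3:**
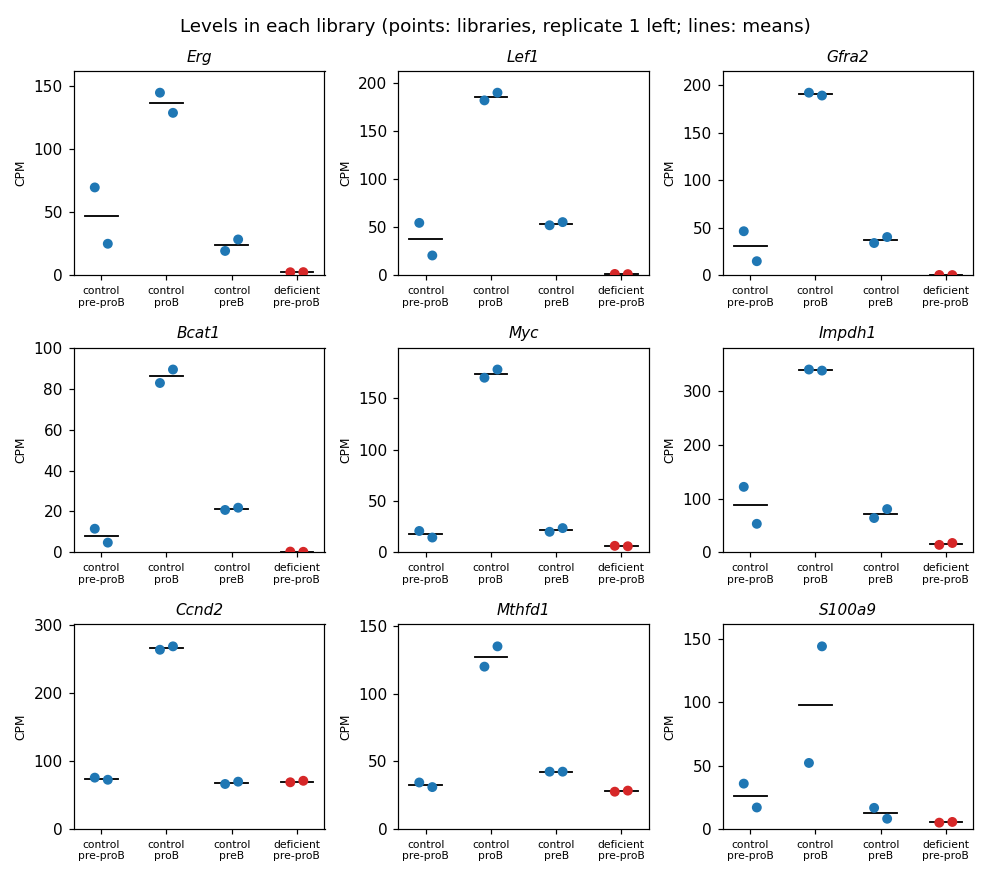
CPM (y axes, each from 0) of Erg and 8 of the genes in each library (points, replicate 1 on the left of each pair) of the control stages (blue) and of Erg-deficient pre-proB cells (red), with group means as lines. Lef1, Gfra2 and Bcat1 lie near 0 in the Erg-deficient libraries, at most 1.49 CPM, whereas Ccnd2 and Mthfd1 lie near their control pre-proB level, and S100a9 differs between the proB libraries.

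The promoters of Lef1, Thrb and Steap3 were the ones among these genes with the ETS motif CAGGAAGT on either strand, in RefSeq windows of 250 bases before to 50 bases after a start (GRCm38.p6). They are shown because Erg is an ETS factor, with the 250 bases before the start in lower case, in the direction of the gene, and the motif in capitals. All 3 starts lie inside the genes, downstream of their first starts. The windows of Lef1 and Thrb are chr3:131156044-131156293 on the plus strand and chr14:17981394-17981643 on the plus strand. That of Steap3, 1 of its 3 with the motif, is chr1:120270271-120270520 on the minus strand.

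Lef1: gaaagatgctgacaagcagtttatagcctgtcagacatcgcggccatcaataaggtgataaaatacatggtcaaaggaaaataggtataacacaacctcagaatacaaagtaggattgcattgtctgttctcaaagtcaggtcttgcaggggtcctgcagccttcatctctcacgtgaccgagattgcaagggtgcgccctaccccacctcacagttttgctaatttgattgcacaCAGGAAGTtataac
Thrb: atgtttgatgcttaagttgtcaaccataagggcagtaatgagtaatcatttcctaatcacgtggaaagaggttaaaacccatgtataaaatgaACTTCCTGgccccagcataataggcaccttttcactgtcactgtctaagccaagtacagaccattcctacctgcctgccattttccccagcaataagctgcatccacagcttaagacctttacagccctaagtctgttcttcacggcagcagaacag
Steap3: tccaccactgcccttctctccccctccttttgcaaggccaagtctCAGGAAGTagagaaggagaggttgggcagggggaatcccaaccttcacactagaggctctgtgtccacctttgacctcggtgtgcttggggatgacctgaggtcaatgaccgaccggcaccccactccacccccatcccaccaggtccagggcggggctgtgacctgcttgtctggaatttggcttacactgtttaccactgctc

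Counted from the start, the motif lay at positions -14, -157 and -205. Of 87 windows of 59 of the genes, 5 (5.75%) held CAGGAAGT, against 3.68% of the windows of all genes tested and 3.33% of all RefSeq windows. The other ETS motif searched, CCGGAAGT, was in 0 of the 87 windows and in 8.13% of the windows of genes tested, and the Ebf1 motif (TCCC, any 2 bases, GGGA) was also in 0, against 0.982%. The E boxes CAGCTG and CAGGTG were in 17.2% and 20.7% of the windows, against 15.0% and 17.9% of those of genes tested. The Foxo motif TGTTTAC was in 8.05%, which are 7 windows of 7 genes, against 2.62%, and the Runx motif TGTGGTT in 3.45%, against 3.97%. All motifs were searched on both strands, a gene with several starts counted once per start, and a match is a description of letters and not a bound site.

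Surface receptors and secreted ligands made up 7 of the genes. Of these, edgeR called 2 lower (0.946% of all genes tested), DESeq2 4 (400 of all 13005 genes in either direction) and limma-voom 0. Gfra2, the membrane-anchored co-receptor for neurturin that signals through Ret, was at 192 and 189 CPM in proB, 46.4 and 14.9 CPM in control pre-proB and 0.435 and 0.322 CPM in Erg-deficient pre-proB. It fell by 6.31 ± 0.758 on the log2 scale (edgeR adjusted p = 0.0218). Adgrg1, an adhesion G-protein-coupled receptor, had the highest proB CPM of the 70, 547 and 546, with 243 and 125 CPM in control and 55.2 and 51.4 CPM in Erg-deficient pre-proB, and fell by 1.79 ± 0.283 (edgeR adjusted p = 0.0441). Colq, the collagen-like tail that anchors acetylcholinesterase, was just outside the threshold at 10.8 and 4.64 CPM against 1.18 and 1.29 CPM (log2 fold change -2.64, adjusted p = 0.0536). For these 3 genes the genotypes did not overlap, which for Gfra2 the filter on low values had set.

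The other ligands gave mixed values. Mif was at 174 and 193 CPM in proB, and its 37.4 and 32.7 CPM in control pre-proB overlapped the 30.1 and 33.3 CPM in Erg-deficient cells (log2 fold change -0.15, adjusted p = 0.569). Vegfa, the endothelial growth factor, also overlapped at 11.9 and 8.20 CPM against 10.8 and 9.59 CPM, and its log2 fold change of 0.02 turned to -0.02 when libraries were scaled by total counts. Il33, an interleukin-1 family cytokine, had 20 counts in the control pre-proB libraries together and 0 in the Erg-deficient ones, which makes it at least 6.76-fold lower at a limit of 3 counts over the group. Its proB level was 19.4 and 19.2 CPM.

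Nucleotide, one-carbon, amino acid and polyamine metabolism accounted for 12 genes. In edgeR 3 were called lower (0.946% of all genes tested), and 7 were lower at an unadjusted p below 0.05 (7.6%). DESeq2 called 3 lower, against 400 of all 13005 genes in either direction, and limma-voom called 0. For 10 of the 12 both Erg-deficient libraries lay below both controls, an order found in 21.9% of all genes tested. For Bcat1 the filter on low values had set this order. Bcat1, the cytosolic transaminase of branched-chain amino acids, was at 82.9 and 89.5 CPM in proB, 11.5 and 4.70 CPM in control pre-proB and 0.311 and 0.193 CPM in Erg-deficient pre-proB, and fell by 4.96 ± 0.610 on the log2 scale (edgeR adjusted p = 0.0219). Impdh1, an isozyme of the rate-limiting step of guanine nucleotide synthesis, was at 122 and 53.0 CPM in control and 13.7 and 17.2 CPM in Erg-deficient pre-proB and fell by 2.51 ± 0.385 (adjusted p = 0.0415). Gmpr, which turns GMP back into IMP, was at 7.13 and 3.56 CPM against 0.559 and 0.773 CPM and fell by 2.99 ± 0.448 (adjusted p = 0.0403).

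The other 9 did not pass the adjusted threshold in edgeR. Dnph1, a nucleotide hydrolase, was at 2.14 and 1.75 CPM against 0.621 and 0.966 CPM (log2 fold change -1.29, adjusted p = 0.204). Erg-deficient means of the remaining 8 were between 77.7% of the control mean for Slc19a1, the reduced folate carrier, and 98.7% for Gcsh, a protein of the glycine cleavage system. Pnp, which splits purine nucleosides, was at 181 and 212 CPM in proB, 60.4 and 53.9 CPM in control and 49.7 and 50.4 CPM in Erg-deficient pre-proB (log2 fold change -0.20 ± 0.0791, adjusted p = 0.384). Mthfd1, the trifunctional folate enzyme, was at 34.4 and 31.0 CPM against 27.6 and 28.4 CPM (log2 fold change -0.23 ± 0.0846, adjusted p = 0.334). Shmt1, which moves the one-carbon unit of serine to folate, was at 13.7 and 11.4 CPM against 10.9 and 8.82 CPM (adjusted p = 0.473), and Srm, spermidine synthase, at 27.7 and 32.4 CPM against 26.6 and 31.7 CPM (adjusted p = 0.909). Both Erg-deficient libraries lay below both controls for Pnp, Mthfd1 and Shmt1 by small margins, and Srm overlapped.

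Antigen receptor and G-protein signalling accounted for 5 genes. Rgs8, a regulator of G-protein signalling, was at 11.9 and 12.8 CPM in proB, 4.92 and 2.17 CPM in control and 0.0621 and 0.193 CPM in Erg-deficient pre-proB and fell by 4.73 ± 0.682 on the log2 scale (edgeR adjusted p = 0.0353). Ptpn7, a haematopoietic tyrosine phosphatase, was at 54.5 and 39.7 CPM against 29.8 and 31.6 CPM (log2 fold change -0.62, adjusted p = 0.125), and Ubash3a, which restrains antigen receptor signalling, at 13.4 and 8.08 CPM against 5.59 and 4.76 CPM (log2 fold change -1.05, adjusted p = 0.151). Zap70, a kinase best known from the T-cell receptor, overlapped at 7.13 and 5.49 CPM against 5.72 and 6.63 CPM. Sh2d2a, a T-cell adaptor, had the highest log2 fold change of the tested genes, 0.62 ± 0.254 (adjusted p = 0.393), at 6.02 and 5.31 CPM against 6.71 and 10.8 CPM. Summed over 6 natural killer cell markers the control pre-proB libraries had 28.5 and 31.1 CPM and the Erg-deficient ones 88.7 and 156 CPM. Of these 6, edgeR called 4 higher (0.215% of all genes tested), DESeq2 6 (400 of all 13005 genes in either direction) and limma-voom 0. Summed over 7 T-cell markers the values were 613 and 758 CPM against 1410 and 771 CPM. Of the 7, 0 were called by edgeR, DESeq2 or limma-voom, and 2 were higher at an unadjusted p below 0.05 in edgeR. Cd3e, 1 of the 7, was at 4.99 and 6.45 CPM against 4.97 and 4.83 CPM, so most of the sum came from the others. The part of such RNA in the Zap70 and Sh2d2a values was not tested.

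The 11 genes of the cytoskeleton, cell adhesion and microtubules had a median log2 fold change of -1.77. Of these, edgeR called 1 lower (0.946% of all genes tested), and 10 were lower at an unadjusted p below 0.05 (7.6%). DESeq2 called 7 lower, against 400 of all 13005 genes in either direction, and limma-voom called 0. The 1 called by edgeR was Ttll11, a tubulin polyglutamylase, at 7.71 and 3.32 CPM in control and 0.0621 and 0.193 CPM in Erg-deficient pre-proB (log2 fold change -5.36 ± 0.681, edgeR adjusted p = 0.0235). Bfsp2, a filament protein of the lens, was at 117 and 123 CPM in proB, 17 and 7.60 CPM in control pre-proB and 2.49 and 2.83 CPM in Erg-deficient pre-proB (log2 fold change -2.21, adjusted p = 0.0635). Mylk, myosin light chain kinase, had 4.99 and 1.39 CPM against 0.186 and 0.0644 CPM (log2 fold change -4.57, adjusted p = 0.0758). In 10 of the 11 the Erg-deficient libraries lay below the controls, an order found in 21.9% of all genes tested. For Ttll11, Mylk and Rai14 the filter on low values had set it. Drc7, a ciliary dynein regulator, was at 29.3%, Ctnnd1, p120 catenin, at 34.9% and Smtn, smoothelin, at 61.9% of the control mean. Only Wdr60, a part of the dynein of cilia, overlapped.

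Of 10 other enzymes and proteins of repair and cell death, 6 were lower at an unadjusted p below 0.05 in edgeR (7.6% of all genes tested). In DESeq2 2 passed the adjusted threshold (400 of all 13005 genes in either direction), and 0 did in limma-voom or edgeR. Uaca, a coiled-coil protein with ankyrin repeats, was nearest to it, at 18.7 and 8.14 CPM in control and 1.99 and 2.58 CPM in Erg-deficient pre-proB (log2 fold change -2.55, adjusted p = 0.0513). Txnrd3, a thioredoxin reductase, was at 11.8 and 6.57 CPM against 5.53 and 4.51 CPM (adjusted p = 0.301), and Ppa1, inorganic pyrophosphatase, overlapped at 17.6 and 19.3 CPM against 17.8 and 17.9 CPM. Poll, the end-joining DNA polymerase λ, was at 4.40 and 2.65 CPM against 1.18 and 1.16 CPM (adjusted p = 0.104). Bok, a relative of the death effectors Bax and Bak, had 30 counts in the control and 1 in the Erg-deficient pre-proB libraries, a ratio of 30.4 with an exact 95% interval of 5.06 to 1240 that covers counting error only. Steap3, an iron reductase whose promoter is printed above, was at 5.70 and 3.80 CPM against 2.49 and 3.73 CPM (log2 fold change -0.61, adjusted p = 0.482).

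The last 11 genes have other roles or none that is known. Tmem255a, a membrane protein, had 173 counts in the control pre-proB libraries and 0 in the Erg-deficient ones, so that it was at least 58.5-fold lower at a limit of 3 counts over the group (edgeR adjusted p = 0.0353). 2900026A02Rik was at 54.1 and 19.3 CPM against 5.34 and 2.96 CPM, with an adjusted p of 0.0531. Ifitm2, an interferon-induced membrane protein, was at 12.1 and 6.03 CPM against 4.04 and 3.86 CPM (adjusted p = 0.196), and Ifrd2 overlapped at 16.2 and 19.9 CPM against 17.1 and 16.0 CPM. Klhl23 and Slc35f2 had log2 fold changes of 0.04 and -0.05, signs that turned when 1 library was left out.

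The remaining 9 genes, S100a8, S100a9, Ngp, Ltf, Lcn2, Camp, Chil3, Mmp9 and Retnlg, encode granule and secreted proteins of neutrophils. They were 1.96 to 4.48 times as high in proB replicate 2 as in proB replicate 1, with a median of 2.61, whereas the other 61 genes had ratios of 0.829 to 1.37 with a median of 1.05. S100a9, a calcium-binding protein of neutrophils, was at 52.1 and 144 CPM in proB, 35.8 and 17 CPM in control pre-proB, 16.7 and 8.12 CPM in preB and 5.03 and 5.60 CPM in Erg-deficient pre-proB. Its partner S100a8 was at 36.9 and 104 CPM in proB, and Ngp, a granule protein, at 32.0 and 74.5 CPM. The sum of the 9 was 116 and 51.7 CPM in control pre-proB, 179 and 470 CPM in proB, 59.9 and 25.8 CPM in preB and 15.8 and 17.4 CPM in Erg-deficient pre-proB. Over all 8 myeloid markers, 3 of which (S100a8, S100a9 and Ngp) are among the 9, the sum ranged from 179 to 231 CPM in control pre-proB, 186 to 444 CPM in proB, 63.6 to 91.1 CPM in preB and 105 to 133 CPM in Erg-deficient pre-proB. Among the others, Mpo was at 58.0 and 69.8 CPM in control pre-proB and 4.02 and 22.6 CPM in proB. Csf1r was at 18.7 and 23.0 against 2.81 and 3.50 CPM, and Elane at 5.57 and 6.69 against 0.44 and 4.29 CPM. Lyz2 was at 36.7 and 21.1 against 34.9 and 63.5 CPM, and Itgam at 31.4 and 23.6 against 23.0 and 27.6 CPM.

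Without proB replicate 2, none of the 9 met the limits that chose the genes. In Erg-deficient pre-proB cells 3 of the 9 fell in edgeR, against 0.946% of all genes tested. DESeq2 called 7 of the 9 lower, against 400 of all 13005 genes in either direction, and limma-voom called 0. The 3 were Ngp by 2.32 ± 0.336, Ltf by 2.95 ± 0.448 and S100a9 by 2.31 ± 0.353 on the log2 scale (edgeR adjusted p = 0.0353, 0.0405 and 0.0407). All 9 had both Erg-deficient libraries below both controls, an order found in 21.9% of all genes tested. Without these 9, 10 of 59 tested genes were called lower and the median log2 fold change was -0.81. The part of neutrophil RNA in their proB level was not tested.

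**Figure D4:**
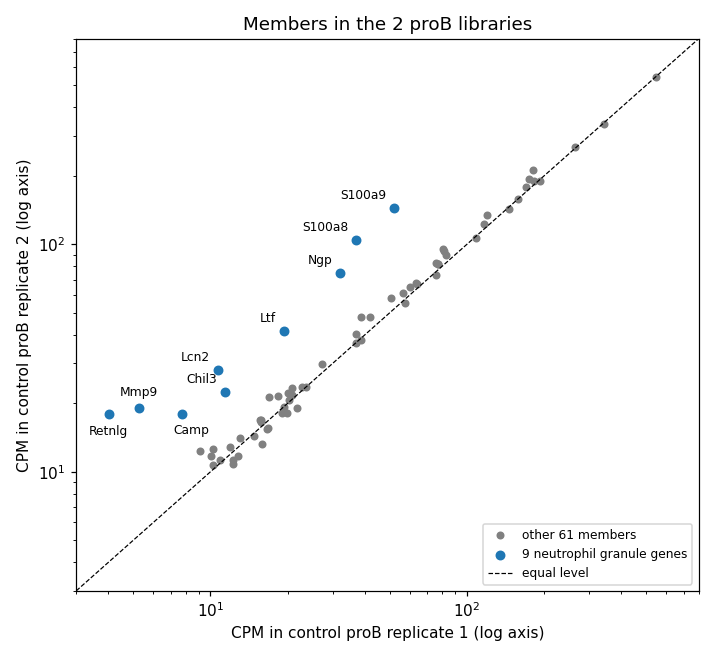
CPM of the 70 genes in proB replicate 1 (x) and replicate 2 (y), both on log axes, with the line of equal level. The 9 neutrophil granule genes (blue, named) lie above the line by 1.96 to 4.48 times, and the other 61 (grey) lie along it.

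The control pre-proB libraries also differed from each other for part of the genes. Over all genes tested, the median ratio of replicate 1 to replicate 2 was 0.995, whereas Erg was 2.77 times as high in replicate 1. Of the 61 genes that are not neutrophil granule genes, 22 were at least 2 times as high in replicate 1, 11 were between 1.5 and 2 times and 28 were under 1.5 times. Erg-deficient means were at a median of 11.9% of control in the first set (0 to 43.8%), 54.7% in the second (29.0 to 90.2%) and 86.5% in the third (34.3 to 154%). The 3 sets held 8, 1 and 1 of the genes called lower, and the last of these was Myc. The surrogate light chain genes Igll1 and Vpreb1 had the same order of the control libraries as Erg, Igll1 at 251 and 84.0 CPM and Vpreb1 at 190 and 63.8 CPM. The sets were formed after the values had been seen, the control mean enters both the ratio and the percentage, and no test was made.

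Few genes of other lists were among the 70. Of 28 B-lineage transcription factors, Lef1 and Myc were. In Erg-deficient pre-proB cells edgeR called 7 of the 26 tested lower, those 2 among them, against 0.946% of all genes tested. DESeq2 called 11 lower and 1 higher, against 400 of all 13005 genes in either direction, and limma-voom called 0. Of 25 cell cycle genes measured, none were among the 70 and none were called by edgeR, DESeq2 or limma-voom, with a median log2 fold change of -0.09. At an unadjusted p below 0.05 in edgeR 5 of them were lower (7.6% of all genes tested). Ccnd2 was the member among 16 genes of the interleukin-7 receptor and STAT5 pathway. Of these, edgeR and limma-voom called none, DESeq2 called 1 lower and 4 were lower at an unadjusted p below 0.05 in edgeR (7.6% of all genes). Bcat1, Mthfd1 and Shmt1 were the members among 17 genes of serine, one-carbon and amino acid metabolism. Of 15 tested, edgeR called Bcat1 alone, DESeq2 called 1 lower and limma-voom 0. Of 23 genes of the pre-B-cell receptor, its signalling and V(D)J recombination, none were among the 70, from which Igll1, Vpreb1 and Vpreb2 were barred. Of these 23, edgeR called 8 lower (0.946% of all genes tested), DESeq2 9 (400 of all 13005 genes in either direction) and limma-voom 0. Lists of adhesion molecules, ion channels and vesicle release genes held none of the 70, solute carriers held Slc19a1 and Slc35f2, and growth factor and G-protein receptors held Adgrg1 and Gfra2. The 69 genes with a known position lay on 19 chromosomes, and the members closest together were S100a8 and S100a9 on chromosome 3, with 22596 bases between them, and Adgrg1 and Drc7 on chromosome 8, with 40895 bases between them.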

How the data were processed

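RNA of 8 sorted bone marrow libraries was analysed. The authors removed adapters with Trim Galore, mapped paired reads of 100 bp to mm10 by STAR, used featureCounts for counting per gene and deposited whole-number counts without normalization. Apart from CASAVA 1.8.2, versions of the trimming, mapping and counting tools were not given in the sources used here, nor was the use of strand, and reads of overlapping or near-identical genes can be shared. Library totals had a median of 17006205 counts. Stage levels that chose the genes were CPM from column totals, and printed levels are CPM scaled by TMM factors (0.955 to 1.04). The comparison of genotypes used edgeR 4.0.16 in R 4.3.3 (TMM, legacy quasi-likelihood fit of 4 libraries, at least 0.5 CPM in 2 libraries, called at an adjusted p below 0.05), after the study's methods. The standard error (SE) was taken as the log2 fold change over the square root of F. FPKM used GENCODE M21 exon lengths. The fit was also run on simulated counts with changes set in genes of higher level only, and no result here rests on that run.

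Genes named are the 12 highest in proB, the 8 called genes of lowest p, the 6 with the highest log2 fold change, transcription factors, list members, genes next to a limit and the 3 highest of each functional group, and the other called genes and those next to the significance threshold were named after their values had been seen. The members and lists were chosen with earlier results of these data known, and functional groups were set by hand after levels had been seen. Symbols were found for 69 of the 70 genes, and Entrez identifier 100861633 had none. Replicates differed from each other beyond counting noise (chi-square per degree of freedom 3.82 to 8.29). Populations were sorted independently per the methods. Alternatives were other scalings, filters, tools (DESeq2 1.42.0, limma 3.58.1), rule limits, a replicate block and each library left out.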

Additional observations from a re-analysis of the deposited data

How the results depend on the processing

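In place of 13, the number of genes called lower in Erg-deficient pre-proB cells was 9 with total counts, 12 with DESeq2 size factors, 21 without a filter, 13 with a filter of 1 CPM, 30 with DESeq2, 0 with limma-voom (44 at an unadjusted p below 0.05), 3 with the edgeR version 4 method, 4 with robust estimation and 25 with all 8 libraries in one fit. Without 1 library it ranged from 0 of 68 to 30 of 59 tested. Genes chosen at 4 times both stages gave 7 of 23 tested, with a median log2 fold change of -2.32, and at 2 times 19 of 270, with a median of -0.18. Over all genes, 151 calls became 279, 400, 41, 88 and 442 without a filter, with DESeq2, limma-voom, the version 4 method and all 8 libraries, and 10 to 401 without 1 library. The median log2 fold change was -1.21 and -1.30 over 68 genes without an Erg-deficient library, and -0.49 and -0.97 without a control library, over 59 genes whose median was -0.81 in the fit of all 4. The number called higher was 0 under every alternative run.

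With the replicate number as a block, 22 of the genes were called lower, and 265 over all genes. Same-numbered libraries of the genotypes deviated with a correlation of 0.0102, which gave no sign of pairing by number. A single correlation over 4 libraries cannot exclude such pairing, and a change of calls under the block is no measure of effect size.

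The rule chose 64 genes with TMM library sizes, 272 at 2 times, 24 at 4 times, 92 at 5 CPM, 46 at 20 CPM and 49 to 91 without 1 library. Signs turned for 12 genes, none of them called. Without 1 library the log2 fold change ranged from -0.27 to 0.17 for Ankrd13b, -0.44 to 0.20 for D630045J12Rik, -0.10 to 0.05 for Gcsh, -0.27 to 0.02 for Ifrd2, -0.15 to 0.21 for Klhl23, -0.12 to 0.01 for Ppa1, -0.18 to 0.09 for Slc35f2, -0.64 to 0.03 for Sox12, -0.18 to 0.07 for Srm, -0.24 to 0.31 for Vegfa, -0.58 to 0.27 for Wdr60 and -0.22 to 0.16 for Zap70, and with total counts it was -0.02 for Vegfa. Each of the 13 called genes was called in 7 to 11 of the 12 to 14 alternative fits that tested it. The causes of these changes were not tested. With 2 libraries a group, and 1 when a library was left out, the lone library is assumed to vary like the other group.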
